A study of Mus musculus with 23 samples.

Results

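The peptide loading and cross-presentation machinery was followed here through 10 genes, Tap1, Tap2, Tapbp, Tapbpl, Erap1, Calr, Pdia3, Canx, Sec61a1 and Wdfy4, taken by name from a count table of 13572 gene rows. The cells were CD103+ type 1 conventional dendritic cells (cDC1) sorted from subcutaneous melanomas of wild-type C57BL/6 mice, 6 days after the cancer cells were injected. In 4 mice (11 libraries) the injected BRAFV600E melanoma cells were Ptgs1/Ptgs2 KO, without either cyclooxygenase and so without prostaglandin E2 synthesis; these are called mice with KO tumours. In 4 others (12 libraries) the cells were control BRAFV600E melanoma, which makes prostaglandin E2; these are called mice with control tumours. Only the injected cancer cells carried the knockout, so the mice and the sorted cDC1 kept both genes in both groups. The labels give neither the age of the mice nor whether each cell line was a clone. Each library came from a pool of 10 cells, gated as viable CD45+, positive for MHC-II, CD11c and CD103 and negative for CD11b, and was prepared with Smart-seq3, which reads whole transcripts from minute amounts of RNA. The comparison asks what the loss of prostaglandin synthesis by the cancer cells did to these genes in the cDC1 of the tumour.

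MHC class I molecules show peptides from inside the cell to CD8 T cells. The transporter TAP, a dimer of the Tap1 and Tap2 products, pumps peptides from the cytosol into the endoplasmic reticulum (ER), where the aminopeptidase Erap1 trims them. Tapasin (Tapbp) bridges TAP to empty class I molecules and favours the binding of stable peptides, and the tapasin-related protein TAPBPR (Tapbpl) edits peptides outside the loading complex. The lectin chaperones calnexin (Canx) and calreticulin (Calr) and the thiol oxidoreductase ERp57 (Pdia3) fold the heavy chain and hold it in place for loading. Sec61a1 encodes the pore of the ER translocon, which has been discussed as an exit for antigen in cross-presentation, the display of engulfed antigen on class I molecules. Wdfy4, a BEACH domain protein, is required for cross-presentation of cell-associated antigen by mouse cDC1.

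Promoter windows, from 250 bases before to 50 after the start site, were found for 7 of the 10 genes in RefSeq (GRCm38.p6). They were searched on both strands for the interferon-stimulated response element ISRE (GAAA repeated after 2 free bases), the interferon gamma-activated site GAS (TTCNNNGAA), the cyclic AMP response element CRE (TGACGTCA) and the ER stress response elements ERSE and ERSE-II, where ERSE is CCAAT and CCACG with 9 free bases between them and ERSE-II is ATTGG and CCACG with 1. Windows of 4 genes are shown, those with a match (Erap1, Calr and Canx) and that of Tap1 for its overlap with Psmb9. The windows of Tapbp, Pdia3 and Wdfy4, which held no match, are not shown. ERSE and ERSE-II share both boxes, since ATTGG is CCAAT on the other strand, and none of the 7 windows held more than 1 match. Tap1 starts back to back with Psmb9, a subunit of the immunoproteasome that makes its peptides, and capitals mark the 275 of 300 bases that both windows share.
Tap1 (chr17:34187306-34187605, plus strand): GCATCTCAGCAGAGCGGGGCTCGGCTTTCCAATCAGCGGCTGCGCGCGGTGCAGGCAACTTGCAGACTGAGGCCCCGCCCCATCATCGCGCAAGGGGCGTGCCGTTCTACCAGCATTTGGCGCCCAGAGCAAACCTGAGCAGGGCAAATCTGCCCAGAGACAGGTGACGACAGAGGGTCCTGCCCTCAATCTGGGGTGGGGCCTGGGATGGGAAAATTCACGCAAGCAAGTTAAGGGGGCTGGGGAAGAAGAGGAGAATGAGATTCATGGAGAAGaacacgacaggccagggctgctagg
Erap1 (chr13:74639603-74639902, plus strand, ISRE in capitals): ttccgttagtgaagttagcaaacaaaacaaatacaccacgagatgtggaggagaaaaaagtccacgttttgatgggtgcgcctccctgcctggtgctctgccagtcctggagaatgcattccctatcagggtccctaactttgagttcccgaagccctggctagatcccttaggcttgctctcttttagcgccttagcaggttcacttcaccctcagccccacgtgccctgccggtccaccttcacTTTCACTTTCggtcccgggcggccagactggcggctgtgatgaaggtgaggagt
Calr (chr8:84846882-84847181, minus strand, ERSE in capitals): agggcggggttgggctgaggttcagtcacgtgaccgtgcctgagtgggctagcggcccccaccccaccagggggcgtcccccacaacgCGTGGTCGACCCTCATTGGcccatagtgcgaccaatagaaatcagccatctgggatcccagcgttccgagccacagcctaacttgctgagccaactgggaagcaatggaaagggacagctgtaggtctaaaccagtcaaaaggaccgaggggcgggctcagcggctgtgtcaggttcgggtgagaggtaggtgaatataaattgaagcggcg
Canx (chr11:50325624-50325923, minus strand, ERSE in capitals): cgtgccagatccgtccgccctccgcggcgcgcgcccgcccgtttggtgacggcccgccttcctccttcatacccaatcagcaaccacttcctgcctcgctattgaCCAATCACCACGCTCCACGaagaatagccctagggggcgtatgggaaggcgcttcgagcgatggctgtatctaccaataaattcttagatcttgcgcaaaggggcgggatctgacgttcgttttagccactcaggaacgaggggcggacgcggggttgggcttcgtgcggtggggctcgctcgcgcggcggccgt
The ISRE letters were present in 1 of the 7 windows, that of Erap1, from position -4 to 6 around the start site, and in 3.44% of all 32851 windows in the table. The ERSE letters were present in 2 of the 7, those of Calr (-162 to -144) and Canx (-145 to -127), and in 0.119% of all windows. GAS (8.3% of all windows), CRE (1.79%) and ERSE-II (0.0365%) had no match in the 7 windows. These are matches of letters and do not show that a factor binds there.

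Libraries held 25571 to 98554 counts and mice, after their libraries were summed, 101017 to 230478, which leaves few counts for most of the 10 genes. The filter on low counts (edgeR's filterByExpr with a minimum count of 10, applied before trimmed-mean scaling) kept 2076 genes, among them 7 of the 10: Tap1, Tap2, Tapbp, Calr, Pdia3, Canx and Wdfy4. On the scale the filter uses, counts over the unadjusted total of each mouse, Tap2 reached its level in 3 mice with KO tumours and 1 with control tumours, so it passed largely through the group in which it was higher. All levels printed here in CPM are instead counts scaled to totals of the tested genes, adjusted by trimmed means, and cannot be set against the filter. Tapbpl, Erap1 and Sec61a1 did not pass and are given by their counts and by a fit without the filter. Of the cDC1 markers, all 13 were detected in both groups, with a summed level of 6327 to 9132 CPM in mice with KO tumours against 3433 to 5801 CPM in mice with control tumours. Fewer cells of a type in a pool and less RNA per cell cannot be told apart in these pools. The knocked-out genes are no check of the labels here, since the cDC1 were not targeted. Ptgs1 was not found by name in the count table. Ptgs2 had 14 counts, all from 1 mouse, in the cells from KO tumours against 4 in those from control tumours.

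Per kilobase of annotated exon, Calr had the highest mean of the 10 genes in both groups, with 180 ± 43.1 CPM per kb in KO tumours and 176 ± 31.5 in control tumours (SD, n = 4 mice each), followed by Pdia3 (136 ± 31.9 and 138 ± 24.1). The ranges of Calr and Pdia3 overlapped in both groups, and that of Pdia3 overlapped the range of Tapbp in KO tumours, so these orders are not settled. A middle tier held Tapbp (93.7 ± 16.2 in KO and 66.3 ± 19.1 CPM per kb in control tumours), Canx (85.8 ± 17.7 and 78.8 ± 16.3) and Wdfy4 (81.0 ± 12.6 and 65.1 ± 9.94). The ranges of these 3 genes overlapped within each group, so their order is not settled. Tap1 (44.0 ± 8.01 and 24.3 ± 8.53), Tap2 (35.4 ± 13.8 and 17.6 ± 8.82) and Tapbpl (30.0 ± 15.6 and 11.7 ± 6.67) formed a lower tier, and every mouse had less Tap1 per kb than any mouse of its group had Wdfy4. Sec61a1 (11.6 ± 2.86 and 11.02 ± 4.29) and Erap1 (7.23 ± 3.22 and 4.73 ± 5.18) had the lowest means in both groups and overlapped each other. Sec61a1 also overlapped Tapbpl in control tumours, but not in KO tumours. On average each of the 3 folding chaperones was above both TAP subunits per unit length in both groups. These tiers rest on the division by exon length. Undivided, Wdfy4 had the highest mean, with 854 CPM in KO and 687 in control tumours, against 519 and 508 for Calr. Whether the counts are reads or unique molecules is not stated, so whether to divide by length is not settled.

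None of the 7 tested genes passed the threshold in either direction (edgeR quasi-likelihood test on the mouse sums, Benjamini-Hochberg adjusted p under 0.05), where 2.7% of the 2076 tested genes were called higher and 2.26% lower (4.96% either way). Without adjustment 2 of the 7, Tap1 and Tap2, had a p under 0.05, both higher, against 9.63% of tested genes that were higher at that level and 18.7% in either direction. Tap2 had entered the test largely through the group in which it was higher. The estimate was positive for 6 of the 7, against 50.7% of tested genes, a count that depends on Calr, Pdia3 and Canx, whose estimates lie near 0. It was 5 of 7 with upper quartile factors, with limma-voom or without KO mouse 2. Without control mouse 4 it was 4 of 7 and without KO mouse 4 it was 4 of 6. It was 7 of 7 with library totals only, without KO mouse 3 or without control mouse 2. With technical replicates 2 and 3 alone, or without libraries holding other cells' markers, it was 6 of 6. DESeq2 called 0 and limma-voom over single libraries, with the mouse as a random effect, called 1, Tap1. By role, the log2 fold changes of the transporter and tapasin genes were 0.48 to 0.95, and those of the folding chaperones -0.06 to 0.14.

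**Figure D1:**
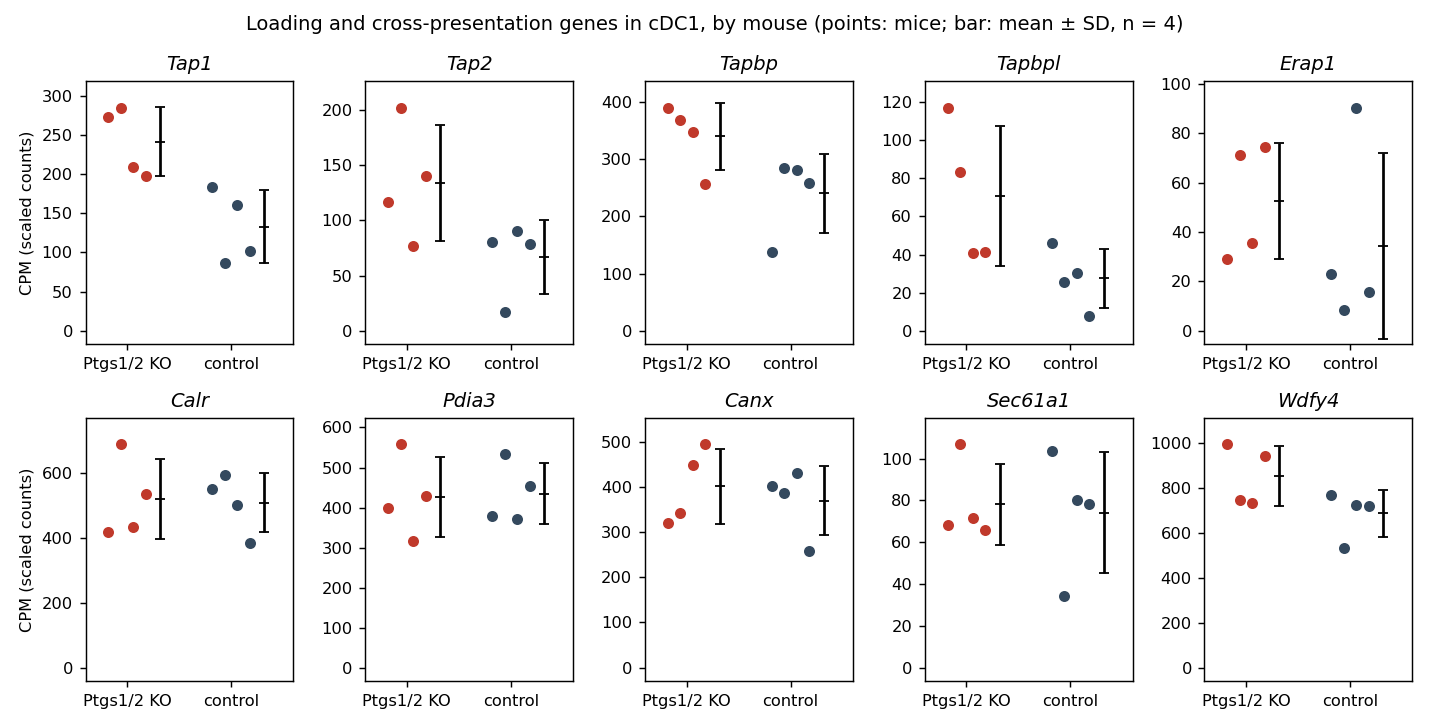
Levels of the 10 genes in CPM on the vertical axes, each scaled to its gene, for 4 mice with Ptgs1/Ptgs2 KO tumours (red, left) and 4 with control tumours (dark, right); bars are mean ± SD. Tap1 is the gene of the 7 tested whose groups do not overlap, with 198 CPM or more in KO tumours and 184 CPM or less in control tumours.

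Tap1 (ENSMUSG00000037321, chromosome 17, 34187553 to 34197225, plus strand, GRCm38) had 273, 285, 209 and 198 CPM in the 4 mice with KO tumours, against 184, 86.0, 161 and 102 CPM in those with control tumours. All mice with KO tumours lay above all mice with control tumours, which was so for 4.91% of tested genes, but the gap between the nearest mice was small. The log2 fold change was 0.86 ± 0.30 (SE), a 1.82-fold difference with a 95% interval of 1.18 to 2.81 (edgeR adjusted p = 0.106). The call was made in limma-voom over libraries (log2 fold change 0.88, adjusted p = 0.0422), and adjusted p-values over all alternatives ran up to 0.274. Tap1 and Psmb9 overlap over 212 exonic bases on opposite strands, and strand use in counting is not given in the sources used here, so reads there cannot be assigned. Psmb9 itself, shown for this reason, had 653 ± 88.3 CPM in KO tumours and 438 ± 80.7 in control tumours and was not called (0.56 ± 0.20, edgeR adjusted p = 0.119).

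Tap2 (ENSMUSG00000024339, chromosome 17, 34203527 to 34216321, plus strand), which encodes the other TAP subunit, had 117, 202, 76.5 and 140 CPM with KO tumours, against 80.5, 17.2, 90.3 and 78.4 CPM with control tumours. The groups overlapped through KO mouse 3, and control mouse 2 lay far below the rest with 2 counts in 3 pools. Exons of the antisense transcripts Gm15821 and Gm20496, not analysed here, overlap those of Tap2 over 533 and 165 bases. The log2 fold change was 0.95 ± 0.43, a 1.93-fold difference with an interval of 1.03 to 3.63 (edgeR adjusted p = 0.242). In total the gene had 61 counts with KO tumours and 28 with control tumours, so its estimate is the least precise of the 7. Without control mouse 2 it was 0.61 on the log2 scale.

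Tapbp (ENSMUSG00000024308, chromosome 17, 33915899 to 33929292, plus strand), the gene of tapasin, had 390, 368, 347 and 256 CPM with KO tumours, against 138, 284, 281 and 259 CPM with control tumours. KO mouse 4 lay among the control values, and control mouse 1 was the lowest mouse of all. The log2 fold change was 0.48 ± 0.26 (interval -0.07 to 1.03, edgeR adjusted p = 0.36), or 1.39-fold, and it was 0.29 without control mouse 1. The annotation overlaps that of Zbtb22 on the same strand over 149 exonic bases, but Zbtb22 had only 2 counts with KO tumours and 6 with control tumours. The antisense transcript Gm19412, not analysed here, shares 904 exonic bases.

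Tapbpl (ENSMUSG00000038213, chromosome 6, 125223933 to 125231860, minus strand), the gene of the second peptide editor, was scarce in both groups. It had 12, 7, 8 and 5 counts in the mice with KO tumours, against 4, 3, 3 and 1 in those with control tumours. It was detected in 10 of 11 pools from KO tumours and in 4 of 12 from control tumours, and in every mouse of both groups. The pools of a mouse are technical replicates, and detection by pool was neither tested nor set against other genes. Scaled to depth, the levels were 117, 83.0, 40.8 and 41.3 CPM with KO tumours, against 46.0, 25.8, 30.1 and 7.84 CPM with control tumours, so control mouse 1 overlapped the lower mice of the other group. The fit without a count filter gave 1.31 ± 0.61 on the log2 scale (interval 0.12 to 2.505), with an edgeR adjusted p = 0.478 over 13311 genes, of which 0.826% were called higher. Its gene body lies within that of Vamp1 on the other strand, without shared exonic bases, and Vamp1 had 0 counts with KO tumours and 10 with control tumours.

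Erap1 (ENSMUSG00000021583, chromosome 13, 74639568 to 74693201, plus strand), the trimming aminopeptidase, had 3, 6, 7 and 9 counts with KO tumours, against 2, 1, 9 and 2 with control tumours. The groups overlapped, and control mouse 3 alone held 9 of the 14 control counts. The estimate without a filter was 0.59 ± 0.62 (interval -0.62 to 1.80, edgeR adjusted p = 0.794), which at 25 against 14 counts covers a fall as well as a large rise. Erap1 shares 834 exonic bases with Cast on the opposite strand, and Cast had 58 counts with KO tumours and 43 with control tumours.

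**Figure D2:**
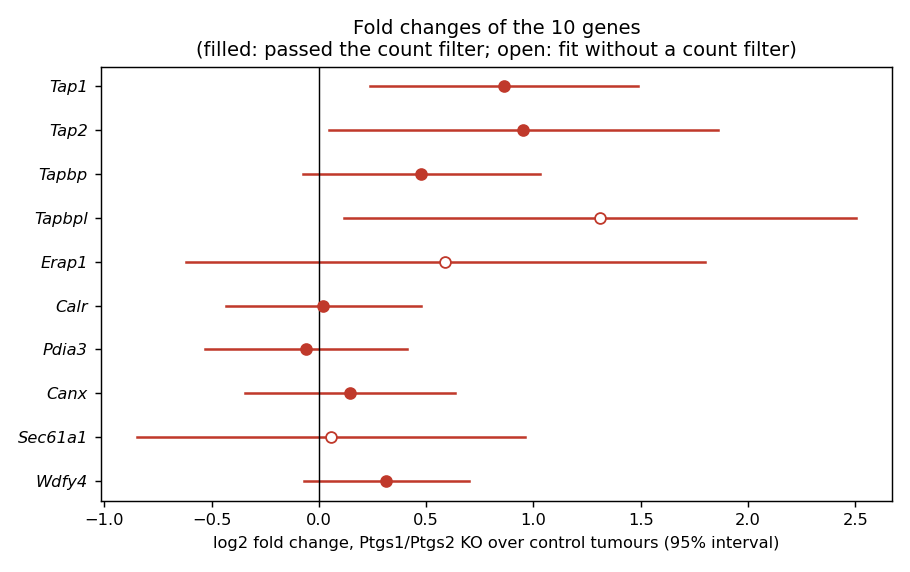
Log2 fold changes (KO over control tumours, horizontal axis) with 95% intervals for the 10 genes; filled points passed the count filter and open points come from the fit without one. Tap1 and Tap2 have intervals above 0 before adjustment, whereas Calr (-0.43 to 0.48), Pdia3 (-0.53 to 0.41) and Canx (-0.34 to 0.63) lie around 0. Tap2 passed the filter largely through the mice with KO tumours, the group in which it was higher.

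The chaperones that fold the class I heavy chain had overlapping levels in the 2 groups. Calr (ENSMUSG00000003814, chromosome 8, 84841850 to 84846934, minus strand) had 419, 688, 434 and 536 CPM with KO tumours, against 552, 594, 502 and 384 CPM with control tumours. The ranges lay over each other, and the log2 fold change was 0.02 ± 0.22 (edgeR adjusted p = 0.964). Its interval in folds, 0.74 to 1.39, leaves room for a moderate change in either direction but not for a doubling.

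Pdia3 (ENSMUSG00000027248, chromosome 2, 121413775 to 121438687, plus strand), which encodes ERp57, had 400, 558, 316 and 429 CPM with KO tumours, against 380, 534, 371 and 455 CPM with control tumours. KO mouse 2 was the highest and KO mouse 3 the lowest of all mice, so the control values lay inside the KO range. The log2 fold change was -0.06 ± 0.23 (0.959-fold, interval 0.692 to 1.33, edgeR adjusted p = 0.921).

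Canx (ENSMUSG00000020368, chromosome 11, 50293961 to 50325673, minus strand), the membrane-bound relative of calreticulin, had 322, 344, 449 and 495 CPM with KO tumours, against 403, 387, 432 and 259 CPM with control tumours. The lowest mouse of all was control mouse 4 and the highest KO mouse 4, with the others mixed. The log2 fold change was 0.14 ± 0.23 (1.11-fold, interval 0.788 to 1.55, edgeR adjusted p = 0.806). The signs of the estimates for Calr, Pdia3 and Canx changed under some scalings, filters or omissions of a mouse, so no direction is given for them.

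Sec61a1 (ENSMUSG00000030082, chromosome 6, 88503579 to 88518905, minus strand), the translocon pore, had 7, 9, 14 and 8 counts with KO tumours, against 9, 4, 8 and 10 with control tumours. In CPM this was 78.1 ± 19.2 against 74.2 ± 28.8 (SD, n = 4 each), with overlapping groups. The fit without a filter gave 0.05 ± 0.46 on the log2 scale (interval -0.85 to 0.96, edgeR adjusted p = 0.981), so a change within that interval was not detectable at this depth. The antisense transcript Gm44170, not analysed here, shares 549 exonic bases with it.

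Wdfy4 (ENSMUSG00000051506, chromosome 14, 32959547 to 33185508, minus strand) had the most counts of the 10 genes, 423 with KO tumours and 293 with control tumours. Its levels were 994, 747, 735 and 941 CPM with KO tumours, against 771, 534, 723 and 721 CPM with control tumours. Control mouse 1 overlapped KO mice 2 and 3, and control mouse 2 was the lowest of all. The log2 fold change was 0.32 ± 0.18 (1.24-fold, interval 0.954 to 1.62, edgeR adjusted p = 0.387). Without control mouse 2 it was 0.20 on the log2 scale. Wdfy4 is also on the list of cDC1 markers, of which 12 of 13 were tested, with a median of 0.86. Of these 5 rose (Xcr1, Irf8, Naaa, Tlr3 and Id2) and none fell, where 2.7% of all tested genes were called higher. Besides Wdfy4, those not called were Itgae (0.93), Zbtb46 (0.87), Clec9a (0.34), Batf3 (0.17), Ppt1 (0.03) and Flt3 (-0.23). The calls of Irf8 and Xcr1 were lost once libraries holding other cells' markers were left out, with log2 fold changes of 0.78 and 1.78 there against 0.85 and 2.16 with all libraries (edgeR adjusted p of 0.181 and 0.185, in 14 libraries), and those of Naaa, Tlr3 and Id2 were not recomputed there.

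**Figure D3:**
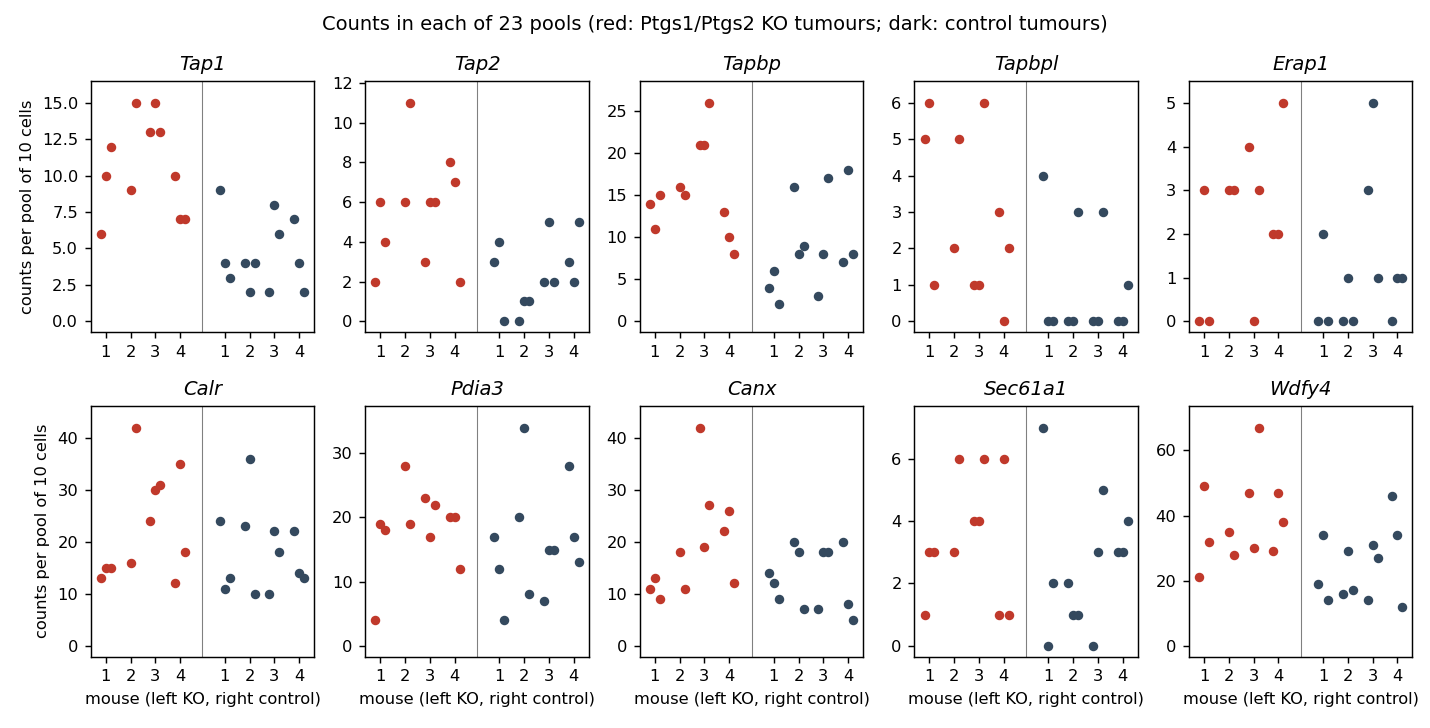
Counts of each gene (vertical axes, own scale) in every pool of 10 cells, by mouse: 11 pools from KO tumours (red, left) and 12 from control tumours (dark, right). Tap1 had 6 to 15 counts per pool in KO tumours and 2 to 9 in control tumours. Tapbpl had 0 counts in 8 of the 12 control pools, but every control mouse had counts of it.

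Tap1 ranged over 6 to 15 counts per pool with KO tumours (median 10), against 2 to 9 with control tumours (median 4), and no pool lacked it. Scaled to depth, the pools of the 2 groups overlapped, with 148 to 366 CPM with KO tumours against 47.6 to 321 CPM with control tumours. Between the pools of a mouse, the counts of Calr spread beyond counting error (chi-squared statistic 3.25 per degree of freedom, over 15), with 12 to 42 counts per pool with KO tumours and 10 to 36 with control tumours. For Tap1 the statistic was 1.115 and for Tap2 0.946, at few counts per pool, whereas the scarce Tapbpl had 2.364. The median over the 2076 tested genes was 1.722, so a spread beyond counting error was usual. Since it can grow with the count, the statistic does not compare the spread of 1 gene with that of another.

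Summed by role, the 5 genes of peptide transport, editing and trimming (Tap1, Tap2, Tapbp, Tapbpl, Erap1) reached 926, 1008, 709 and 710 CPM with KO tumours, against 472, 422, 652 and 463 CPM with control tumours. The 3 folding chaperones (Calr, Pdia3, Canx) summed to 1140, 1590, 1199 and 1461 CPM with KO tumours, against 1334, 1514, 1305 and 1098 CPM with control tumours. The first sum was higher in every mouse with a KO tumour than in any with a control tumour, and the second overlapped. The ratio of the first sum to the second was 0.631 ± 0.136 with KO tumours and 0.388 ± 0.0946 with control tumours (SD, n = 4 each), with an overlap between KO mouse 4 (0.486) and control mouse 3 (0.5). Since the genes were grouped with their results known, these sums carry no test. The summed cDC1 markers separated the groups in the same way, and their part in the result was not tested.

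**Figure D4:**
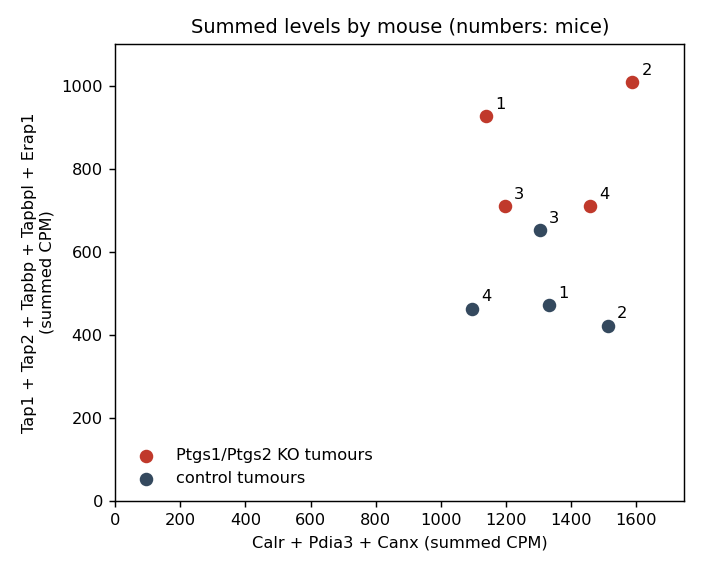
Summed CPM of the 5 transport, editing and trimming genes (vertical axis) against summed CPM of the 3 folding chaperones (horizontal axis), 1 point per mouse with its number. Mice with KO tumours (red) lie at 709 CPM or more on the vertical axis and those with control tumours (dark) at 652 or less, while on the horizontal axis they overlap (1140 to 1590 with KO and 1098 to 1514 with control tumours).

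The rest of the class I pathway was read from lists chosen, like the 10 genes, with earlier results known. Of 10 class I molecule genes 6 were tested, 4 of them rose and none fell, with a median log2 fold change of 0.97, where the median of all tested genes was 0.01. Over all 2076 tested genes 2.7% were called higher and 2.26% lower, the shares to set beside each list. The light chain B2m rose by 0.87 ± 0.20 (edgeR adjusted p = 0.0164) and the heavy chain H2-K1 by 1.07 ± 0.27 (edgeR adjusted p = 0.0283). The other 2 were the close paralogs H2-Q6 (2.18) and H2-Q7 (1.35, edgeR adjusted p = 0.0497), whose reads are hard to tell apart. H2-D1 (0.65 ± 0.22, edgeR adjusted p = 0.102) and H2-T23 (0.66 ± 0.29, edgeR adjusted p = 0.213) were not called. H2-D1 was called without KO mouse 3 (0.81, edgeR adjusted p = 0.0346), and its estimate was 0.39 without KO mouse 2. The calls of B2m, H2-K1 and H2-Q6 were each lost without control mouse 2 (edgeR adjusted p of 0.0531, 0.0587 and 0.0598). That of H2-Q7 was lost in 14 of 17 alternatives, among them the omission of any 1 of the 8 mice and DESeq2 (adjusted p = 0.0839). B2m was also lost without control mouse 1 and with robust dispersion (edgeR adjusted p = 0.136), H2-Q6 without control mouse 3 and with limma-voom (adjusted p = 0.0516), and H2-K1 without control mouse 3 or KO mouse 2. Without KO mouse 2 the estimates of B2m and H2-K1 were 0.56 and 0.65.

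Peptide supply, meaning the immunoproteasome, its activator and cytosolic peptidases, had 7 of 13 genes tested and none called, with a median of 0.44. The estimate was positive for 5 of the 7, and the genes named here are all among the positive ones or off the list. Psmb8, an immunoproteasome subunit encoded between Tap1 and Tap2, had 1130 ± 230 CPM in KO and 768 ± 156 in control tumours (0.56 ± 0.19, edgeR adjusted p = 0.0974). Psmb8 was called with library totals only (0.65, edgeR adjusted p = 0.0464) and with limma-voom (0.56, adjusted p = 0.0324). Psme1, a subunit of the proteasome activator PA28, had 965 ± 172 and 707 ± 126 CPM (0.44 ± 0.18, edgeR adjusted p = 0.185). Psme2, the gene of the other PA28 subunit, had 794 ± 261 and 445 ± 113 CPM and lay just short of the threshold (0.80 ± 0.24, edgeR adjusted p = 0.0536). Psme2b, a near-identical copy of Psme2 that is not on the list and was chosen after its values were seen, was called at the threshold (1.05 ± 0.30, edgeR adjusted p = 0.0497); reads of the pair are hard to tell apart.

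Of 10 regulators of class I genes 6 were tested, with a median of 0.87. Of these 2 rose, where 2.7% of all tested genes were called higher, and none fell. Among them Irf8, which specifies cDC1, rose by 0.85 ± 0.21 (edgeR adjusted p = 0.0215). Irf1 (1.82 ± 0.59, edgeR adjusted p = 0.0796) and Stat2 (0.88 ± 0.31, edgeR adjusted p = 0.112) were not called. Irf1 was called with no count filter (1.79, edgeR adjusted p = 0.000393), with the mouse number as a replicate block (1.84, edgeR adjusted p = 0.0436) and without KO mouse 3 (2.115, edgeR adjusted p = 0.0394), and its estimate was 1.21 without KO mouse 2. The call of Irf8 was lost with technical replicates 2 and 3 alone (0.80, edgeR adjusted p = 0.0577) and without KO mouse 1 or 4 or control mouse 2 or 4 (log2 fold changes from 0.68 to 1.08 over the fits without a mouse). Nlrc5, the transactivator of class I genes, had 41 counts with KO tumours and 33 with control tumours and did not pass the filter.

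The chaperone and translocon lists held no called gene. Of 17 further ER chaperones 9 were tested, with a median log2 fold change of 0.25. Hspa5, the ER chaperone BiP, had 862 ± 211 CPM in KO and 695 ± 272 in control tumours (0.29 ± 0.24, edgeR adjusted p = 0.564), and Hsp90b1, its partner GRP94, had 780 ± 191 and 637 ± 138 CPM (0.28 ± 0.21, edgeR adjusted p = 0.532). Of 17 genes of the translocon and signal peptide processing 15 were tested, with a median of 0.05. The small translocon subunits Sec61g (1003 ± 176 in KO and 974 ± 88.6 CPM in control tumours) and Sec61b (664 ± 80.0 and 677 ± 129 CPM) had log2 fold changes of 0.04 ± 0.17 and -0.02 ± 0.19. Their signs turned under some alternatives. The estimate of Sec61a1 (0.05 ± 0.46) came from the fit without a filter and was less precise.

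Beyond the 10 genes, 26 genes of cross-presentation were listed, of which 16 were tested and none was called, with a median of -0.01. Ifi30, the lysosomal thiol reductase GILT, had 470 ± 148 CPM in KO and 631 ± 123 in control tumours (-0.43 ± 0.23, edgeR adjusted p = 0.346). Cyba, a subunit of the phagosomal NADPH oxidase, had 394 ± 175 and 512 ± 84.5 CPM (-0.41 ± 0.26, edgeR adjusted p = 0.451). Once libraries holding other cells' markers were left out, the estimates were -0.06 for Ifi30 and -0.10 for Cyba.

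Likeness of pattern was measured as the Euclidean distance between log2 CPM over the 8 mice, each gene centred on its own mean, against 2069 other tested genes. Nearest to Tap1 were Irf8 (distance 0.507), Tmpo (0.558), H2-T23 (0.618), Tor1aip1 (0.625) and Sept3 (0.653). Their log2 fold changes were 0.65 to 0.88, and Irf8 was the one called. Nearest to Calr were Plp2 (0.321), Hnrnpf (0.364), Gm7331 (0.373), Eef1d (0.408) and Gnb2 (0.42), with log2 fold changes of -0.01 to 0.16 and none called. With 8 mice and few counts per gene, these neighbours describe the table only.

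Marker levels of other cell types differed between mice. Macrophage and monocyte markers summed to 107 to 225 CPM in mice with KO tumours, against 80.5 to 1262 CPM with control tumours (10 of 10 markers in the table, C1qb at 0 with KO tumours). Markers of plasmacytoid dendritic cells (pDC) summed to 231 to 408 CPM, against 161 to 1255 CPM (6 of 6, with Siglech, Ly6d and Klk1 at 0 with KO tumours), and cDC2 markers to 107 to 249.1 CPM, against 331 to 753 CPM (7 of 7), with the groups apart. T and NK cell markers summed to 0 to 264 CPM with KO tumours, against 0 to 127 CPM with control tumours (9 of 11, with Cd4 at 0 in both groups and Trbc1, Cd8a and Gzmb at 0 with control tumours). B cell, melanoma, fibroblast and endothelial markers had at most 17 counts per list and group. After the 9 libraries with 10 or more counts of specific macrophage, pDC or T cell markers were left out, a choice made after the data were seen, 8 pools with KO tumours and 6 with control tumours remained. There none of the 6 of the 10 genes that could be tested was called, against 1.59% of 1131 genes called higher. Tap1 had 321 ± 67.3 CPM with KO tumours and 160 ± 87.0 with control tumours there (0.95 ± 0.39, edgeR adjusted p = 0.24), Tapbp 406 ± 48.9 and 236 ± 101 CPM (0.74 ± 0.34, edgeR adjusted p = 0.313) and Wdfy4 941 ± 189 and 587 ± 194 CPM (0.68 ± 0.27, edgeR adjusted p = 0.228). Without these libraries the chaperones had estimates of 0.19 for both Calr and Pdia3 and 0.29 for Canx. With all libraries the estimates were 0.86 ± 0.30 for Tap1, 0.48 ± 0.26 for Tapbp and 0.32 ± 0.18 for Wdfy4. Changes between the fits were not tested. The libraries were left out without regard to cDC2 markers, and the part of other cells in these differences was not tested.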

How the data were processed

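The values deposited by the authors are raw counts, integers for each gene in each of 23 Smart-seq3 libraries. Per the submitters' processing notes, reads were aligned with STAR 2.5.4b to GRCm38 (mm10); the sources used here name no counting program, strand setting or annotation. The sources name no spike-in, and levels are therefore relative. As deposited, 16 gene symbols had been turned into dates, Sept3 among them, and were restored. Whether the counts are reads or unique molecules is not stated, so intervals may understate the error. No 2 libraries were duplicates (chi-squared at least 1.86 per degree of freedom).

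Libraries of a mouse, labelled technical replicates, were summed (4 mice per group; KO mouse 2 had 2 libraries). Genes passing filterByExpr entered a two-sided quasi-likelihood F-test (edgeR 4.0.16) after TMM scaling, and p-values were adjusted by Benjamini and Hochberg's method over the 2076 genes (threshold 0.05; biological coefficient of variation 21.8%). CPM are counts over TMM-adjusted totals of tested genes. Standard errors and 95% intervals were derived from each F statistic and its fold change. Exon lengths, positions and overlaps are from GENCODE M21, promoters from RefSeq. Alternatives used DESeq2 1.42.0 and limma 3.58.1, in R 4.3.3. The 10 genes, the lists and the naming rule (from each list the called genes, at most 6, and the 2 most abundant not called; the 5 patterns nearest to Tap1 and Calr) were chosen with earlier results of these data known; Psmb9, Psme2, Psme2b and Nlrc5 were added for context after their values were seen. A further gene that the naming rule selects is not reported here.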

Additional observations from a re-analysis of the deposited data

Results flagged for a closer look

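In each group of 4 mice, the gap between an extreme mouse and its neighbour was compared with the range of the group (Dixon's test at 95%), for 20 groups, of which chance flags about 1 in 20. Tap2 in control mouse 2, at 17.2 CPM, lay apart below the other control mice (78.4 to 90.3 CPM) and rested on 2 counts. Sec61a1 in KO mouse 2, at 107 CPM, lay apart above the other mice with KO tumours (66.0 to 71.4 CPM) and rested on 9 counts.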

How the results depend on the processing

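Over the alternatives, the count of the 10 genes called lower was 0 throughout, and that called higher was 0 except with limma-voom over libraries, where it was 1 (Tap1). Tap1 (log2 fold changes 0.69 to 1.1), Tap2 (0.61 to 1.18), Tapbp (0.29 to 0.74) and Wdfy4 (0.20 to 0.68) kept a positive sign wherever they could be tested. The sign of Calr turned with upper quartile factors (-0.0510), a minimum count of 5 (-0.0269) and limma-voom (-0.0184), and over the fits without a mouse it ran from -0.13 to 0.10. That of Pdia3 turned with library totals only (0.0289), technical replicates 2 and 3 alone (0.13) and without libraries with markers of other cells (0.19), and over the fits without a mouse it ran from -0.21 to 0.0598. Canx ran from -0.0029 to 0.23 over those fits. The causes were not tested. Of all tested genes 56 were higher and 47 lower; the counts were 110 and 84 with no filter, 32 and 25 with a minimum count of 20, 32 and 19 with technical replicates 2 and 3 alone, and 18 and 6 without libraries with markers of other cells, fits that tested 13311, 1012, 1459 and 1131 genes. Library totals only gave 70 higher and 24 lower, upper quartile factors 45 and 67 and limma-voom 62 and 79. Without 1 mouse, higher genes numbered 31 to 67 (fewest without control mouse 2) and lower genes 23 to 45 (25 without control mouse 2 or 4, 23 without control mouse 3, 31 without KO mouse 4). With the mouse number as a replicate block 45 were higher and 28 lower and none of the 10 genes was called. The labels do not say whether mice of the same number were paired. Their deviations from the group means had correlations of -0.0868 to 0.0976, the own number being the best match for 1 of 4, which does not settle the pairing. Depth limits Tapbpl, Erap1 and Sec61a1, which had 11 to 38 counts per group.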
